A study of Mus musculus with 2 samples.

Results

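The MHC class II presentation genes described here are 7 of the 31053 genes counted, namely H2-Aa, H2-Ab1, H2-Eb1, Cd74, H2-DMa, H2-DMb1 and Ciita. They were taken by symbol from the gene table of the matrices, and all 7 symbols were found. Cells sorted for F4/80 and CD11b, surface proteins of microglia, macrophages and monocytes, were captured from retinas of C57BL/6j mice at postnatal day 17 and sequenced as droplet single-cell libraries of 3' transcript ends. The control library (RA) came from mice raised in room air and held 1449 cells, and the OIR library came from mice put through oxygen-induced retinopathy, in which pups raised in high oxygen and then returned to room air lose retinal capillaries and grow new abnormal vessels, and held 1259 cells. Cells of several retinas were pooled in each library by the study's account, and there was 1 library per condition, so cells are not replicates, no p-value is given for any difference, and a difference between the conditions cannot be told apart from a difference between 2 libraries. Intervals are exact 95% intervals that cover counting error only.

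MHC class II molecules carry peptides from engulfed proteins to the cell surface, where helper T cells read them. H2-Aa and H2-Ab1 encode the alpha and beta chains of one class II molecule, I-A, and H2-Eb1 encodes the beta chain of the other, I-E, whose alpha chain gene is inactive in C57BL/6 mice. Cd74, the invariant chain, fills the groove of a new molecule on its way to the endosome, H2-DMa and H2-DMb1 form the DM exchanger that lets go of its remnant and loads peptide, and Ciita is the coactivator that switches class II genes on. Dendritic cells and B cells make class II steadily, macrophages and monocytes make it in some tissues and after interferon-gamma, and microglia of a healthy nervous system are known for making little.

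Ciita works through factors bound to paired elements before the start of class II genes, an X box followed by a Y box, the second a CCAAT element of NF-Y read in reverse. The stretches that hold both are printed because Ciita acts through them. They come from RefSeq's windows of 250 bases before to 50 after each start (GRCm38.p6, the build called mm10 in the submitters' notes), read 5′ to 3′ on the gene's strand, with the letters GNAACT (X) and TGATTGG (Y) in capitals.
H2-Aa, chr17:34287861-34287910, minus strand: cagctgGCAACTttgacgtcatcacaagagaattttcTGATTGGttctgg
H2-Eb1, chr17:34305770-34305818, plus strand: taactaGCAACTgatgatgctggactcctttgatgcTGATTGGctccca
H2-DMb1, chr17:34153091-34153140, plus strand: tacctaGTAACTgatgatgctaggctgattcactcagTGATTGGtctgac
The boxes lie 25, 24 and 25 bases apart in these genes. The letters were chosen after the windows had been read, and they overlap no other motif searched. On either strand, GNAACT lies in 42.8% and TGATTGG in 7.82% of the 32851 mouse promoter windows, and an X then a Y on the printed strand before the start, 10 to 45 bases apart, lies in 0.152%. The 2 windows of H2-DMa do not hold the pair in these letters, and H2-Ab1 and Ciita were not in the promoter table. Cd74 was left out of the search by gene. Of other class II genes searched, H2-Eb2 holds the pair, and H2-DMb2, H2-Oa and H2-Ob do not.

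After filters 2474 cells were kept, 1295 from RA and 1179 from OIR, with a median of 9064 and 5427 UMIs (unique transcript molecules counted per cell), and no cell barcode occurred in both libraries. Clusters built without the members and the other genes of their pathway gave 1352 microglia-like cells (780 RA, 572 OIR), 230 macrophage-like cells (89 RA, 141 OIR) and 144 monocyte-like cells (53 RA, 91 OIR). P2ry12 was counted in 88.1% of the microglia-like cells, Mrc1 in 89.1% of the macrophage-like cells and Plac8 in 91.0% of the monocyte-like cells. Not all defining genes were as widespread. Pf4 was counted in 88.7%, Lyve1 in 51.3% and Cd163 in 50.4% of the macrophage-like cells. Ccr2 was counted in 54.2% and Ly6c2 in 28.5% of the monocyte-like cells. In the microglia-like clusters led by Cryba4 and by Gclm, described below, P2ry12 was in 58.3% and 22.7% of cells. The macrophage-like cells also held P2ry12 in 69.1% of cells and the monocyte-like cells in 31.9%. The 556 rod-like cells, named from rod genes and with a Ptprc UMI in 1.26% of cells, were photoreceptors that came through the sort and served as the background for free RNA.

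Few cells held the class II chain transcripts. H2-Aa, H2-Ab1 and H2-Eb1 together gave 12119 UMIs in the 2474 cells kept, and 2007 of those cells had none. Another 303 cells had 1, 71 had 2, 26 had 3 to 4 and 14 had 5 to 9. Cells with 10 or more chain UMIs are called class II-rich below, and there were 53 of them, 31 RA and 22 OIR, or 2.14% of the cells kept (1.61 to 2.79). They held 94.9% of all chain UMIs, with a lowest count of 11, a median of 110 and a highest of 913 per cell. The single highest cell held 7.53% of all chain UMIs, the top 5 held 34.7%, the top 10 held 50.9% and the top 20 held 75.7%. The 3 cells just inside the minimum had 11, 11 and 12 chain UMIs, and the 3 just outside had 9, 8 and 7, so the minimum fell in a thinly filled stretch of counts. Because the class II-rich cells were chosen by these UMIs, their chain levels are a description and carry no test.

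**Figure D1:**
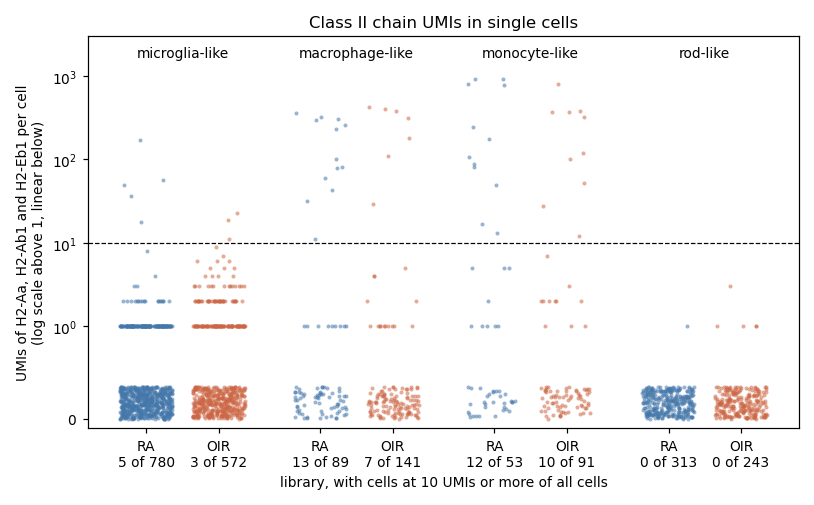
Summed UMIs of H2-Aa, H2-Ab1 and H2-Eb1 in each cell (vertical axis, log scale above 1 and linear below, points at 0 spread upwards for sight), by cell class and library (horizontal axis), with the dashed line at 10 UMIs. Most cells lie at 0 or 1, 20 of 230 macrophage-like and 22 of 144 monocyte-like cells lie above the line, and none of the 556 rod-like cells does.

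The members fell into a concentrated set and a spread set. Among the 1900 CD45-positive cells (myeloid cells with the leukocyte gene Ptprc in their cluster), the class II-rich cells were 2.79% of cells and held 4.48% of all UMIs. They held 99.6% of the H2-Aa UMIs, 99.1% of H2-Eb1, 87.3% of H2-Ab1, 81.7% of Cd74 and 95.5% of the 66 Ciita UMIs. H2-DMa and H2-DMb1 were spread wider, with 10.3% and 17.3% of their UMIs in class II-rich cells. Of 10133 genes with at least 50 UMIs, 0.582% had 25% or more of their UMIs in these cells, and 5 of the 7 members did. For the 3 chains this share follows from the choice of cells, whereas Cd74, Ciita and both DM genes took no part in it. The gene with the widest spread, H2-DMa, was counted in 1312 of the 1900 cells, and Ciita in 27 of them, 25 of which were class II-rich.

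By class, the chain genes were highest in the monocyte-like cells, then in the macrophage-like cells, and low in the microglia-like cells. H2-Aa stood at 1575 CPM (UMIs per 1000000 UMIs of the class; 1513 to 1639) in the monocyte-like cells of both libraries, 574 (546 to 603) in the macrophage-like cells and 12.6 (10.6 to 14.7) in the microglia-like cells, against 1.02 (0.123 to 3.67) in rod-like cells. H2-Eb1 stood at 1358, 392 and 12.1 CPM in the same order, and H2-Ab1 at 1459.9, 516 and 46.5 CPM. For each of the 3 chain genes the intervals of neighbouring classes in this order did not overlap. The order turned when classes were set by each cell's own marker UMIs, with summed chains at 29.8 CPM in monocyte-like, 41.5 in microglia-like and 355 in macrophage-like cells, in a gate that left out 20 class II-rich cells with markers of both macrophages and monocytes. It also rested on few cells, since 10 of the monocyte-like cells, those with dendritic cell markers described below, held 5639 of the class's 6780 chain UMIs. An H2-Aa UMI was held by 18.1% of monocyte-like, 10.0% of macrophage-like and 1.18% of microglia-like cells, against 0.360% of rod-like cells. Brought to 2000 UMIs per cell, in the 138, 208, 1245 and 228 cells that reached that depth, the shares were 16.4%, 9.39%, 0.509% and 0.389%. The rod-like share rested on 1 UMI in 1 OIR cell, so it sets only a rough background. Among the microglia-like cells the share was 79.6% in the 6 class II-rich cells of that depth and 0.126% in the others.

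The chain levels of the monocyte-like and macrophage-like classes rested on their class II-rich cells. These were 22 of 144 monocyte-like cells (15.3%, 9.83 to 22.2), 20 of 230 macrophage-like cells (8.70%, 5.39 to 13.1) and 8 of 1352 microglia-like cells (0.592%, 0.256 to 1.16). In the monocyte-like class they held 99.3% of 6780 chain UMIs, in the macrophage-like class 99.1% of 4055, and in the microglia-like class 44.7% of 856. Of all chain UMIs, 55.9% lay in the monocyte-like class, 33.5% in the macrophage-like class and 7.06% in the microglia-like class, although that last class held 54.6% of the cells kept. The class II-rich cells were deeper than the other cells of their class among the macrophage-like cells (median 17578 against 9797.5 UMIs) and the monocyte-like cells (10340 against 8438), and shallower among the microglia-like cells (6122 against 9152). What depth contributed to the choice of these cells was not tested; with a minimum of 10 chain UMIs per 10000 UMIs in place of 10 UMIs there were 59 such cells.

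Over whole classes Cd74 followed the chains, and the DM genes differed far less. Cd74 stood at 4314 CPM in the monocyte-like cells, 2088 in the macrophage-like cells and 179 in the microglia-like cells, against 2.54 in rod-like cells. In contrast to H2-Aa and H2-Eb1 it was also present in a large share of ordinary cells, being counted in 45.3% of microglia-like, 60% of macrophage-like and 66.7% of monocyte-like cells. H2-DMa was at 226 CPM (217 to 234) in the microglia-like cells, 180 (165 to 197) in the macrophage-like cells and 256 (231 to 282) in the monocyte-like cells, so that the microglia-like and monocyte-like intervals overlapped only between 231 and 234. H2-DMb1 was at 115, 121 and 194 CPM, and its microglia-like and macrophage-like intervals overlapped. Both DM genes were near 0 in the rod-like cells, with 7 and 3 UMIs. Ciita was the scarcest member, with 30 UMIs in the monocyte-like cells, 32 in the macrophage-like cells and 1 in the microglia-like cells, or 19.4, 11.7 and 0.0831 CPM, and no UMI in rod-like cells. In 1344 microglia-like cells under the chain minimum Ciita had 0 UMIs, which allows a level of up to 0.251 CPM.

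**Figure D2:**
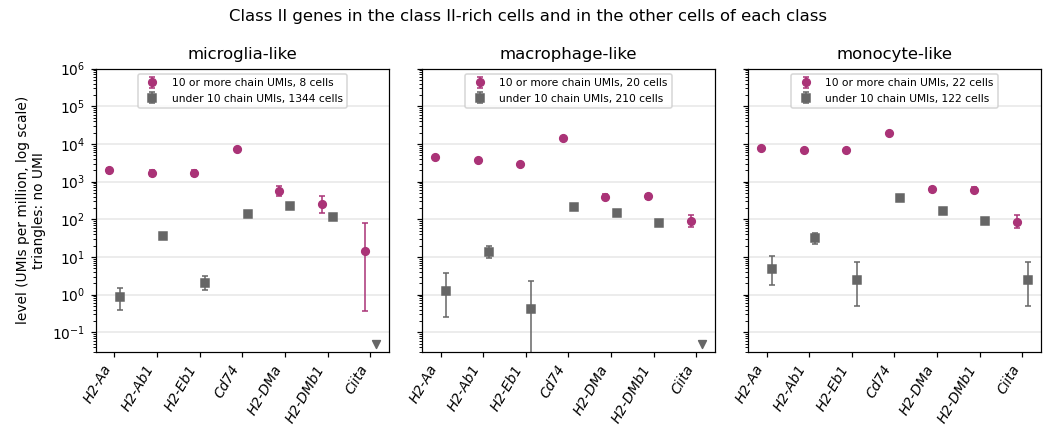
Level of each member (CPM, log scale) in class II-rich cells (circles) and in the other cells (squares) of each class, both libraries summed, with exact 95% counting intervals and triangles where no UMI was counted. Cd74 lies at 7286, 14488 and 19897 CPM in the class II-rich cells of the 3 classes and at 137, 217 and 357 CPM in the others, and both DM genes lie much closer together.

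Within each class the class II-rich cells also held more Cd74, more of both DM genes and nearly all Ciita. In the monocyte-like class Cd74 was 5.80 higher on the log2 scale (5.66 to 5.94) than in the other cells, Ciita 5.15 higher (3.45 to 7.51), H2-DMb1 2.77 higher (2.42 to 3.12) and H2-DMa 1.91 higher (1.62 to 2.20). In the macrophage-like class all 32 Ciita UMIs lay in 8 of the 20 class II-rich cells, and 210 other cells had none. There H2-DMb1 was at 407 CPM against 77.8, and H2-DMa at 401 against 147. In the microglia-like class H2-DMa was at 565 CPM (404 to 769) against 224 and H2-DMb1 at 254 (151 to 402) against 114. As background, 2-fold or more higher in the class II-rich cells were 5.22% of the 3562 genes compared in monocyte-like cells, 2.82% of 3261 in macrophage-like cells and 12.9% of 2862 in microglia-like cells, and 2-fold or more lower were 10.1%, 4.97% and 6.99%.

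What the class II-rich cells were differed between the classes. Of the 22 monocyte-like ones, 10 held a UMI of Flt3, Cd209a or Zbtb46, genes that mark dendritic cells, and 5 of these came from each library. These 10 cells held 5639 of the 6733 chain UMIs, with 119 to 913 and a median of 583.5 per cell, against a median of 66.5 and a highest of 367 in the 12 without. All 10 held Ciita, against 4 of the 12, and Cd74 was at 27633 CPM in the 10 and 10948 in the 12. The 10 were deeper, with a median of 20054.5 UMIs against 9434, and the part of depth in seeing these markers was not tested. Among the other 122 monocyte-like cells 5 held one of these markers, with a median of 21771 UMIs.

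Cd209a, a lectin of dendritic cells, gave 114 UMIs in 7 of the 10 cells and was itself one of the genes that chose them. Of genes that took no part in the choice, Clec10a, another lectin, gave 47 UMIs in 5 of the 10 and 1 UMI in the 12. Ccr7, the receptor that guides dendritic cells to lymph nodes, gave 128 UMIs in 5 of the 10, of which 113 lay in 1 cell, and 9 UMIs in 1 of the 12. Xcr1 and Clec9a, which mark the cross-presenting branch of dendritic cells, had 0 UMIs in all 22 class II-rich cells. Ccr2, the receptor that monocytes use to leave the bone marrow, was held by 8 of the 10 and 8 of the 12. Its levels were 346 and 456 CPM. Napsa was held by all 10 and by 11 of the 12, at 853 and 635 CPM. Plac8 was lower in the 10, at 638 CPM in 7 of them against 2761 CPM in 10 of the 12. Hp gave 5 UMIs in the 10 and 33 in the 12, and Lyz2 gave 5 and 237. Ly6c2, a gene of classical monocytes, gave 7 UMIs in 2 of the 10 cells and 54 UMIs in 5 of the 12. The 22 genes of the monocyte list summed to a median of 76.5 per 10000 UMIs (1.34 to 302) in the class II-rich monocyte-like cells. In the other monocyte-like cells their median was 151 (29.8 to 520). Over the whole list of 22 dendritic cell genes, 19 had a UMI in the class II-rich monocyte-like cells, with a summed level of 0.678 to 138 per 10000 UMIs and a median of 12.1, against 0 to 20.5 and a median of 5.64 in the other monocyte-like cells.

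Defining genes of B, T and NK cells were rare in this group. A single RA cell with 50 chain UMIs held 17 UMIs of Cd79a and 15 of Ms4a1, both B cell genes, and 8 of 10 genes on the B cell list. Of the 12 genes on the T and NK cell list 2 had a UMI in the class II-rich monocyte-like cells, and Cd3e, Trac and Nkg7 had none. Klrd1, a gene known from NK cells that is not on that list, gave 54 UMIs in 8 of the 22 cells. Of the 22 cells, 6 held P2ry12, Tmem119 or Siglech, the microglia genes, against 55 of the other 122. Mrc1, Pf4, Lyve1 or Cd163, the macrophage genes, were held by 9 of the 22 and 9 of the other 122. Mki67 or Top2a, genes of dividing cells, were held by 6 of the 22 and 10 of the other 122. The 9 and the 6 were deeper than the rest of the 22, with medians of 22543 against 9025 and 23833 against 9831.5 UMIs.

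**Figure D3:**
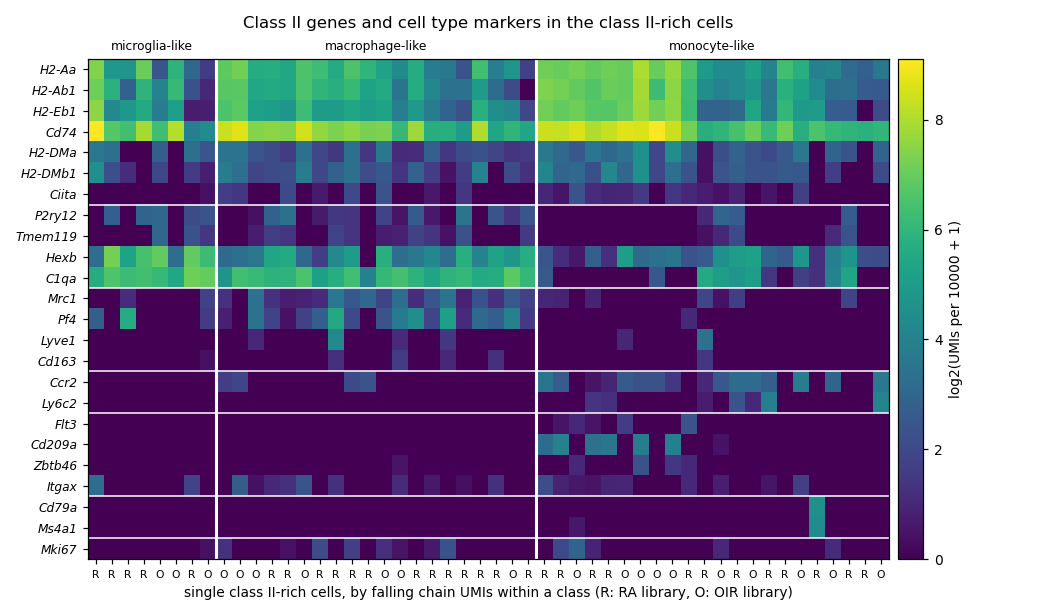
Each column is 1 class II-rich cell (8 microglia-like, 20 macrophage-like, 22 monocyte-like, ordered by falling chain UMIs, R for RA and O for OIR), each row a gene, and the colour is log2 of UMIs per 10000 plus 1. Flt3, Cd209a and Zbtb46 appear in 10 monocyte-like columns and in 1 macrophage-like column, and Mrc1 and Pf4 run across the macrophage-like columns.

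The 20 class II-rich macrophage-like cells carried macrophage genes, at a lower level than the rest of their class. Mrc1, Pf4, Lyve1 or Cd163 was held by 19 of them, Zbtb46 by 1, and neither Flt3 nor Cd209a by any. Ccr2 or Ly6c2 was held by 4 of the 20, with 1322 of the 4019 chain UMIs, and by 4 of the other 210. The 22 dendritic cell genes summed to a median of 3.43 per 10000 UMIs (0 to 13.4) in the 20 cells. In the other 210 their median was 1.74 (0 to 60.7). Of the 22 genes, 11 had a UMI in the 20 cells and 16 in the other 210. Plbd1, one of the 22, gave 32 UMIs in 11 of the 20 cells and 8 UMIs in the other 210, while Xcr1, Clec9a and Ccr7 had none in the 20. The 18 macrophage genes summed to a median of 32.1 per 10000 UMIs (12.7 to 126) in these cells and 109 (0 to 346) in the other 210. Among the 5 genes lowest against the other macrophage-like cells were Cd163, the haemoglobin scavenger, at 33.4 against 239.7 CPM, and Ccl24, the eotaxin, at 39.0 against 299 CPM. P2ry12, Tmem119 or Siglech was held by 16 of the 20, close to the 157 of 210 in the rest. A UMI of Mki67 or Top2a, genes of dividing cells, was held by 11 of the 20 and by 45 of the other 210, and the 11 were deeper than the 9 without (18298 against 11902 UMIs). Rod genes summed to 1544 CPM in the 20 cells and 601 in the rest, 1 of the 20 held all 11 genes of the rod list, and the part of rod RNA in these values was not tested.

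The 8 class II-rich microglia-like cells were few and mixed. They held 11 to 171 chain UMIs (median 29.5), and none held Flt3, Cd209a, Zbtb46, Ccr2 or Ly6c2. P2ry12, Tmem119 or Siglech was held by 5 of the 8 and by 1228 of the other 1344. The 3 without these microglia genes held 239 of the 383 chain UMIs, with 19 to 171 per cell, and the 5 with them held 144, with 11 to 56. The 18 microglia genes summed to a median of 471 per 10000 UMIs in these 8 cells and 407 in the other 1344. Mrc1, Pf4, Lyve1 or Cd163 was held by 3 of the 8, with 40 Pf4 UMIs in 1 cell, and by 58 of the other 1344. Ms4a7, also on the macrophage list, gave 43 UMIs in 3 of the 8 and was 5.67 higher on the log2 scale, with 76.7% of those UMIs in 1 cell. The whole list of 18 macrophage genes summed to a median of 6.14 per 10000 UMIs in the 8 cells and 4.36 in the others. Their cluster was most often the shallow one led by Cryba4, with 4 of its 204 cells. Beyond the 3 classes, 2 of 124 dividing cells, both OIR, were class II-rich with 16 and 201 chain UMIs, as was 1 RA cell of 16 interferon-responding cells, with 153.

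Genes outside the class II pathway also set the class II-rich cells apart. Among the 10 highest in the monocyte-like class were Ccr7 (6.08 higher on the log2 scale), Clec10a (5.98), Cd209a (5.81) and Klrd1 (5.73), and 82.5% of the Ccr7 UMIs came from 1 cell. Fcna and Folr2, macrophage genes, were on the same list, each from 1 cell alone. Spp1 (osteopontin) was 5.34 lower and S100a8, a neutrophil and monocyte gene, 5.27 lower. In the macrophage-like class Slamf7 was 5.94 higher (4.46 to 7.89), with 37 UMIs in 5 of 20 cells and 64.9% of them in 1 cell, and Plbd1 4.73 higher, in 11 of 20 cells. In the microglia-like class Kynu, an enzyme of tryptophan breakdown, was 6.08 higher, with 4 UMIs in 4 of 8 cells, while Gpnmb and the haemoglobin genes Hba-a1 and Hba-a2 came from 1 cell each.

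Over the 1900 CD45-positive cells the genes most like the summed chains were Slamf7 (Pearson's r 0.42), Tnip3 (0.40), Kynu (0.39), Cd209a (0.37) and Klrd1 (0.36), of 10133 genes with log-normalised values. These are descriptions across cells that share 2 libraries and differ in depth. The members H2-Ab1 (0.98), H2-Aa (0.87) and H2-Eb1 (0.86) are part of the sum, and Cd74 (0.66) and Ciita (0.57), which are not, ranked next. H2-DMb1 (0.27) ranked at 20 and H2-DMa (0.21) at 35. Slamf7, a surface receptor of activated leukocytes, had 72.0% of its 100 UMIs in class II-rich cells, spread over 20 of them.

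Among the other genes of the pathway, few went with the chains. Of 21 such genes, 14 could be compared in the monocyte-like class, and 3 were 2-fold or more higher in the class II-rich cells: H2-DMb2, a further DM beta gene, by 4.87 on the log2 scale (3.51 to 6.57), Cd40, the receptor for T cell help, by 2.48 and H2-Oa, a brake on DM, by 2.04. There were 4 lower: the endosomal proteases Ctsd (log2 difference −1.96), Ctsl (−1.51), Ctsb (−1.34) and Lgmn (−1.11). The pathway genes had a median log2 difference of −0.42 there, beside −0.20 over all 3562 genes. Of those 3562 genes, 5.22% were 2-fold or more higher and 10.1% lower. H2-DMb1 and H2-DMb2 are near-identical neighbours, so reads could be split between them. In each of the other classes 9 pathway genes could be compared and 0 passed 2-fold in either direction. Of all genes compared, 12.9% were higher and 6.99% lower in the microglia-like class, and 2.82% and 4.97% in the macrophage-like class. With 9 genes, a count of 0 lies near these shares. H2-DMb2 in the macrophage-like class was too low to enter that count. It had 12 UMIs in 20 class II-rich cells and 10 in 210 others, a log2 difference of 2.99 (1.65 to 4.36). Cd40, also too low for that count, had 12 and 19 UMIs there (2.07, 0.89 to 3.18). Ctss, the protease that trims the invariant chain, was abundant in all 3 classes. Class II-rich cells held 2.74% of its 122743 UMIs, beside 4.48% of all UMIs. In the monocyte-like class it was lower in them by under 2-fold, at 2647 against 4595 CPM (log2 difference −0.80, −0.90 to −0.69). In the microglia-like and macrophage-like classes the log2 differences were 0.20 and 0.08. Rfx5, part of the X box complex, had 2.49% and Nfya, of the Y box complex, 2.11% of their UMIs in class II-rich cells.

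The interferon-gamma genes and MHC class I genes did not follow the chains alike in every class. Of the interferon-gamma genes, Jak1 was lower in the microglia-like class II-rich cells, at a log2 difference of −1.23 (−2.68 to −0.11) from 6 UMIs, and Jak2, a kinase of the interferon-gamma receptor, was 1.07 higher (0.41 to 1.70) in the monocyte-like ones. In the macrophage-like class 0 of 5 compared passed 2-fold, where 2.82% of 3261 genes were higher and 4.97% lower. Of 6 class I genes compared in the microglia-like class, 2 were 2-fold or more higher in the class II-rich cells, beside 12.9% of 2862 genes. These were the class I chains H2-K1 and H2-D1, 1.43 and 1.47 higher. In the macrophage-like class they were lower, at −0.32 and −0.35, and in the monocyte-like class H2-K1 differed by 0.01 (−0.13 to 0.15) and H2-D1 by −0.42.

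Outside the class II-rich cells H2-Ab1 was seen without its partner. In the 1344 other microglia-like cells H2-Ab1 gave 438 UMIs, H2-Aa 10 and H2-Eb1 25. H2-Ab1 thus made up 97.8% of the pair's UMIs (95.9 to 98.9), against 46.2% (40.0 to 52.4) in the class II-rich microglia-like cells, 46.8% (44.98 to 48.6) in the macrophage-like ones and 47.7% (46.3 to 49.2) in the monocyte-like ones. The same held in 122 other dividing cells, with 42 H2-Ab1 UMIs and none of H2-Aa, and less so in the other macrophage-like cells (32 and 3) and monocyte-like cells (38 and 6). In rod-like cells there were 5 and 2 UMIs in 556 cells, a share of 71.4% for H2-Ab1 whose interval, 29.0 to 96.3, took in the shares of the class II-rich cells, and the part of free RNA in these counts was not tested. In all, 22.8% of the microglia-like cells under the minimum held H2-Ab1, with a single UMI in 134 of 153 RA and 93 of 154 OIR cells that held it, against 0.540% of rod-like cells. At 2000 UMIs per cell the shares were 7.13% and 0.387%. H2-Ab1 counts came from 3' ends, and whether all of them were full class II messages was not tested.

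Between the libraries, the chain levels over a whole class were lower in OIR in the 2 classes that held most of them. In the monocyte-like cells the summed chains had 6563 CPM in RA and 2854 in OIR, a log2 ratio of −1.20 (−1.27 to −1.13), with H2-Aa at 2325 and 1043, H2-Ab1 at 2289 and 872, and H2-Eb1 at 1949 and 939. Class II-rich cells were 12 of 53 in RA (22.6%, 12.3 to 36.2) and 10 of 91 in OIR (10.99%, 5.40 to 19.3), so the shares' intervals overlapped. The monocyte-like ratio was −0.49 as a mean over cells and −0.68 (−1.57 to 0.22) without the class II-rich cells. In the macrophage-like cells the chains were at 1842 CPM in RA and 1205 in OIR, a log2 ratio of −0.61 (−0.70 to −0.52), and class II-rich cells were 13 of 89 (14.6%, 8.01 to 23.7) and 7 of 141 (4.96%, 2.02 to 9.96). The macrophage-like ratio turned to 0.081 when the libraries were clustered without integration and to 0.97 (−0.16 to 2.25) without the class II-rich cells. Inside the class II-rich cells the median of chain UMIs per cell went the other way. It was 142.5 in RA and 219.5 in OIR for monocyte-like cells, and 101 and 313 for macrophage-like cells. The highest macrophage-like count was also lower in RA, 359 against 428. For monocyte-like cells the highest count was 913 in RA and 797 in OIR. Their totals were 4181 UMIs in 12 RA cells and 2552 in 10 OIR cells, so the direction there depended on the measure. The class II-rich OIR cells of the 2 classes were shallower, with a median of 9434 against 20832 UMIs and of 13828 against 18298. A handful of cells set each of these class levels, and the counting intervals do not cover which cells were captured.

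Cd74 went with the chains in both classes, at 5909 and 3182 CPM in monocyte-like cells and 2615 and 1684 in macrophage-like cells, in RA and OIR. Without the class II-rich cells its log2 ratios were −0.11 (−0.40 to 0.17) and 0.050 (−0.21 to 0.31). Within the class II-rich cells Cd74 was higher in OIR. It was at 17739 CPM in RA and 23959 in OIR for monocyte-like cells, and at 11796 and 20382 for macrophage-like cells. H2-DMb1 was lower in OIR in monocyte-like cells, with a log2 ratio of −0.67 (−1.01 to −0.33), which was 0.36 (−0.25 to 0.99) without the class II-rich cells, and the H2-DMa ratio in macrophage-like cells was 0.38 (0.11 to 0.65), where the median over all genes was 0.17. Ciita levels were 24.99 CPM in RA and 15.5 in OIR for monocyte-like cells, and 17.7 and 7.10 for macrophage-like cells, from 11 to 21 UMIs each, and its log2 ratio in the macrophage-like cells was −1.32 (−2.52 to −0.20). Of 6 members compared in the monocyte-like class 3, all chain genes, were 2-fold or more lower and 0 higher, where 7.61% of 3559 genes were lower and 6.21% higher. In the macrophage-like class 0 of 6 passed 2-fold, beside 7.52% of 3339 genes higher and 6.26% lower.

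**Figure D4:**
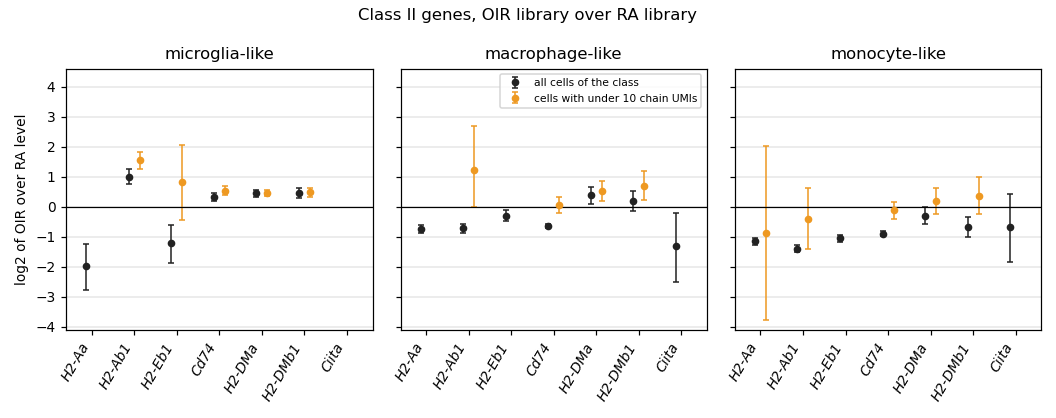
Log2 of the OIR level over the RA level (vertical axis) for each member in each class, for all cells of the class (dark) and for cells with under 10 chain UMIs (orange), with exact 95% counting intervals. H2-Ab1 in microglia-like cells lies at 1.003 for all cells and 1.55 without the class II-rich cells, and the monocyte-like chain genes lie between −1.39 and −1.05.

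Over all microglia-like cells H2-Ab1 was higher and the other chain genes lower in OIR. H2-Ab1 was at 34.5 CPM in RA and 69.2 in OIR, a log2 ratio of 1.003 (0.76 to 1.25), while H2-Aa was at 16.9 and 4.34 CPM and H2-Eb1 at 15.1 and 6.51. Of 4 members compared, H2-Ab1 alone passed 2-fold, beside 6.19% of 3133 genes higher and 6.77% lower, and the median over all genes was 0.03. The 5 RA and 3 OIR class II-rich cells held 330 and 53 chain UMIs, and the summed chain ratio of 0.27 (0.06 to 0.47) turned to −0.86 with all 3000 anchor genes, where the H2-Ab1 ratio was 0.0901.

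In the microglia-like cells under the minimum of 10 chain UMIs, H2-Ab1 was higher in OIR and H2-Aa stayed near 0 in both libraries. The values were 173 H2-Ab1 UMIs in 775 RA cells, or 22.0 CPM (18.9 to 25.6), and 265 in 569 OIR cells, or 64.5 CPM (56.9 to 72.7), a log2 ratio of 1.55 (1.27 to 1.83). H2-Aa gave 8 UMIs in RA and 2 in OIR, and H2-Eb1 13 and 12, or 1.66 and 2.92 CPM (0.82, −0.44 to 2.07). An H2-Ab1 UMI was held by 19.7% of RA and 27.1% of OIR cells, and by 4.23% and 11.5% at 2000 UMIs per cell, which left out 28 RA and 77 OIR cells. Cells with 3 or more H2-Ab1 UMIs numbered 1 in RA and 24 in OIR, although the OIR cells were shallower (median 6457 against 10233 UMIs). The minimum itself counts H2-Ab1, so it caps the values in both libraries. In the same cells Cd74 was at 118 and 172 CPM, a log2 ratio of 0.54 (0.40 to 0.68), H2-DMa at 198 and 272 CPM (0.46, 0.34 to 0.57) and H2-DMb1 at 100.02 and 139.9 CPM (0.48, 0.33 to 0.64).

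The difference in H2-Ab1 was not even over the 4 microglia-like clusters described here. In the Cryba4-led cluster, where Cst7 and Fabp5 of the disease-associated microglia programme were among the top genes, it was at 13.8 CPM in RA, from 3 UMIs, and 105 in OIR (2.93, 1.28 to 5.26). The Gclm-led cluster, with Hmox1 and Prdx1 of the oxidative stress response, had 127 CPM in 61 OIR cells and only 4 RA cells to set beside them. In the Egr3-led cluster, the largest, it was at 23.4 and 46.7 CPM (0.997, 0.57 to 1.42), and in the Rrad-led cluster at 20.7 and 28.2, a log2 ratio of 0.45 whose interval, −0.24 to 1.10, included 0 and did not reach that of the Cryba4-led cluster. Malat1, a nuclear RNA, was counted in 44.8% of the RA and 10.9% of the OIR cells of the Cryba4-led cluster, class II-rich cells included. It was in 3.28% of the Gclm-led, 95.3% of the Egr3-led and 100% of the Rrad-led OIR cells. The part of nuclear RNA content in the H2-Ab1 values was not tested.

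Cd74 was higher in OIR in the Cryba4-led cluster, at 175 and 295 CPM, a log2 ratio of 0.76 (0.22 to 1.32). In the Egr3-led and Rrad-led clusters its log2 ratios were 0.13 (−0.09 to 0.35) and 0.25 (−0.04 to 0.54). H2-DMa was higher in OIR in the Egr3-led (0.53, 0.38 to 0.68) and Rrad-led (0.63, 0.42 to 0.84) clusters, and in the Cryba4-led cluster its ratio was 0.23 (−0.26 to 0.74). The H2-DMb1 ratios were 0.73 (0.52 to 0.95) in the Egr3-led, 0.31 (0.0041 to 0.61) in the Rrad-led and 0.62 (−0.18 to 1.49) in the Cryba4-led cluster. These clusters differ in their share of OIR cells, in their share of cells with Malat1 and in depth. Median depth ran from 2382 UMIs in the Cryba4-led to 8921 in the Egr3-led OIR cells. The part of depth and of nuclear RNA content in these values was not tested.

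**Figure D5:**
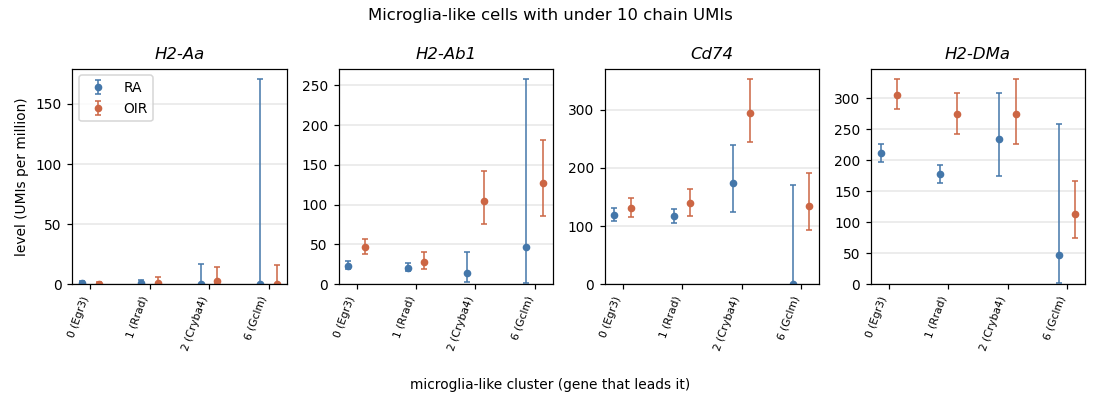
Levels of H2-Aa, H2-Ab1, Cd74 and H2-DMa (CPM) in RA and OIR cells of 4 microglia-like clusters, named by number and leading gene, for cells with under 10 chain UMIs and with exact 95% counting intervals. H2-Ab1 in OIR lies between 28.2 and 127 CPM, H2-Aa lies at or near 0 in these clusters, and the wide RA intervals of cluster 6 come from 4 cells.

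Among the other pathway genes several endosomal proteases were higher in OIR. In microglia-like cells Ctsd was at 4310 CPM in RA and 9965 in OIR, a log2 ratio of 1.21, and Ctsb at 1615 and 3429, a ratio of 1.09. These were the 2 of 10 pathway genes compared that passed 2-fold, and 0 were lower, beside 6.19% of 3133 genes higher and 6.77% lower. In monocyte-like cells 3 of 11 passed, Ctsd (2.23), Ctsl (1.59) and Lgmn (1.45), and 0 were lower, while the chains over the whole class were lower. Beside them 6.21% of 3559 genes were higher and 7.61% lower. In macrophage-like cells 0 of 10 passed, with Ctsd at 0.97, beside 7.52% of 3339 genes higher and 6.26% lower. Ctss was at 0.14 in microglia-like, 0.11 in macrophage-like and 0.76 in monocyte-like cells, where the medians over all genes were 0.03, 0.17 and 0.09. Of 6 class I genes compared, 0 passed 2-fold in any class. Log2 ratios above 0 were found for 5 in microglia-like, 4 in macrophage-like and 3 in monocyte-like cells. H2-D1 was higher in OIR in all 3 classes, by 0.78, 0.59 and 0.45 in that order. B2m differed by 0.07, −0.18 and −0.42.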

How the data were processed

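The authors deposited 1 matrix of raw UMI counts for each library, RA and OIR, made with Chromium 3' v3 reagents. The matrix header names Cell Ranger 3.1.0, and the submitters' processing notes name Seurat 4.0 and the build mm10. No column held values of another series. Depth was 12810892 UMIs in RA and 9835402 in OIR.

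Cells over 20% mitochondrial UMIs and the top 2% by genes were left out. Both libraries were integrated in Seurat 5.3.0 (R 4.3.3) on 3000 anchor genes, less the members and the pathway and class I genes, with 30 dimensions. Clusters with a Ptprc UMI in at least 10% of cells were clustered again at resolution 0.7 and named from marker lists, so the classes are rebuilt and not the authors' own. Scrublet (scanpy 1.11.5) called 3 kept cells as doublets, 0.121%, too few to rely on, and none was class II-rich. Its median score was 0.0897 in class II-rich and 0.0416 in other macrophage-like cells. The scores were 0.0942 and 0.0418 in monocyte-like and 0.0736 and 0.0617 in microglia-like cells. Whether some class II-rich cells were doublets was not tested.

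UMIs were summed per class and library and given as CPM. UMI totals got exact Poisson intervals, shares exact binomial intervals (Clopper-Pearson) and ratios exact conditional intervals, at 95%. Where a count was 0, 3 counts set the limit. Ratios were compared where both levels had at least 3 UMIs and the higher reached 50 CPM, and 2-fold was the size counted. The chains are 3' tags, so levels are per molecule and not scaled by length. Scripts were tested on simulated counts. No differential test was run, with 1 library per condition. The members and lists were chosen with earlier results of these data known. Always named were the 7 members and the genes of the pathway, interferon-gamma and class I lists by count, the 10 genes most like the summed chains, and the 10 highest and 5 lowest genes of class II-rich cells at 50 CPM or more with at least 3 UMIs on both sides, from which examples are given. Marker genes, H2-DMb2 and Cd40 in macrophage-like cells and the split of cells by Flt3, Cd209a and Zbtb46 were singled out after values were seen. Results of some genes and of 1 microglia-like cluster are not reported here.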

Additional observations from a re-analysis of the deposited data

Results flagged for a closer look

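The cells that the filters left out also held class II transcripts. Among 234 such cells, 7 had 10 or more chain UMIs (5 RA, 2 OIR), with 47 to 552 and a median of 187 chain UMIs. They were 2.99% of the cells left out, beside 2.14% of the cells kept. All 7 had 48197 to 64989 UMIs in total and held P2ry12, where the deepest kept class II-rich cell had 34362 UMIs. Whether these 7 cells were doublets was not tested. They came under no comparison above, and the cells left out held 1916 chain UMIs in all.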

How the results depend on the processing

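There were 142 alternative values over 15 results, of which 87 stayed, 49 moved and 6 turned in direction. A value stayed if it lay inside the counting interval of the reported one. The number of class II-rich cells has no such interval, and its alternatives stayed if within a set fold of the reported number. The number of class II-rich cells ran from 45 to 67 under all the alternatives computed, and they held 95.6% of chain UMIs with a minimum of 5 and 94.0% with a minimum of 20. Chain levels are given here in CPM. With at least 2000 UMIs per cell they were 45.03 in microglia-like and 1389 in macrophage-like cells. With all 3000 anchor genes they were 111.0 and 1371. With no filter on cells they were 1701 in macrophage-like and 3172 in monocyte-like cells, without integration 1398.5 and 3962, with a mitochondrial limit of 10% 1367 in macrophage-like cells, and with a Ptprc limit of 25% 4599 in monocyte-like cells. As a mean over cells they were 131, 1136 and 3471 in the 3 classes. Classes set by each cell's own marker UMIs gave 41.5, 355 and 29.8, and H2-Aa shares of 3.40% in macrophage-like and 3.12% in monocyte-like cells. In that gate 20 class II-rich cells with 6893 chain UMIs had markers of both macrophages and monocytes and were left out, and 596 microglia-like cells counted as macrophage-like. The H2-Aa share of microglia-like cells was 0.509% at 2000 UMIs per cell.

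For the summed chains in microglia-like cells the log2 ratios of OIR over RA, 0.27 as reported, were −0.089 with a Ptprc limit of 25%, −0.86 with all 3000 anchor genes, −0.23 as a mean over cells, 1.04 with at least 2000 UMIs, 1.06 without integration and 1.46 without class II-rich cells. In macrophage-like cells, −0.61 as reported, they were 0.081 without integration, 0.97 without class II-rich cells, −1.42 with no filter, −0.018 with at least 2000 UMIs, −0.40 with a mitochondrial limit of 10%, −0.31 with a Ptprc limit of 25% and −0.27 with all 3000 anchor genes. In monocyte-like cells, −1.20 as reported, each was below 0: −0.74 with no filter, −1.13 with at least 2000 UMIs, −1.10 with a Ptprc limit of 25%, −1.73 in the marker gate, −0.49 as a mean over cells and −0.68 without class II-rich cells. Cd74 in microglia-like cells, 0.32 as reported, turned to −0.38 with all 3000 anchor genes. The H2-Ab1 ratio in microglia-like cells under the minimum, whose alternatives were chosen after the data were seen, ran from 1.004 in the marker gate to 1.99 without integration. The causes were not tested. No paired analysis was possible because there is 1 library per condition, and for the same reason no replicate could be left out. Depth limits the scarce genes most: Ciita had 66 UMIs in all kept cells, and in rod-like cells 0 UMIs allow up to 1.52 CPM.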
